A study of Oryza sativa with 12 samples.

Results

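Roots of rice in which OsPEP1 is targeted by RNA interference were compared with wild type roots, both without added peptide. The comparison used 6 of the 12 libraries of the study, 3 from RNAi line 1 and 3 from the wild type, and all 25602 features that passed the filter on low counts. The plants were 7-day-old greenhouse seedlings of Oryza sativa cultivar XS134, and the 6 libraries are those treated with ethanol. The other 6 libraries come from the same genotypes treated with 1 µM PEP1, with 3 libraries a genotype. They share no library with this comparison and are used at the end as a second look at the genotype difference. Genes with reads in both genotypes, called graded, were kept apart from genes with no reads in any of the 3 ethanol libraries of 1 genotype, because a fold is only measured for the former.

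In RNA interference, a hairpin transcript is cut into small RNAs that guide the cleavage of a matching messenger RNA, so the target is usually lowered rather than removed. A single line carries 1 insertion history and 1 history of regeneration beside its hairpin, and a difference between such a line and the wild type cannot be told apart from these histories. The labels name 1 RNAi line, give no promoter for the hairpin and name no empty-vector control. The labels also leave open whether the 3 libraries of a genotype stand for separate plants or cultures, so the p-values here measure only how far these samples scatter, and that scatter may be technical. Root tissue is bulk material, in which fewer cells of a type and less RNA per cell cannot be told apart. Which locus ID is OsPEP1 is not given in the sources used here, so the level of the targeted gene was not analysed here.

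Levels are given in CPM, counts scaled to a common library size with TMM factors, and differences as log2 of the RNAi level over the wild type level. The 6 ethanol libraries held 15971937 to 18751248 counts. On the first principal component of these libraries, with 48.3% of the variance, the 3 wild type libraries lay between -92.8 and -58.0 and the 3 RNAi libraries between 62.8 and 75.6. On the second, with 28.5%, wild type replicate 1 (84.5) and replicate 2 (-87.4) lay at opposite ends. Wild type replicate 1 was the highest of the 6 libraries for 17 of 19 tested nitrogen loci, and RNAi replicate 2 for 9 of 13 diterpenoid phytoalexin loci. The 17 loci of iron uptake, storage and regulation summed to 8046 to 12560 CPM in the 6 libraries, which does not by itself mark root tissue. The 8 loci of photosynthesis and chlorophyll turnover that would mark shoot tissue summed to 43.1 to 271 CPM in the wild type, the highest in replicate 2, and to 20.7 to 65.7 CPM in the RNAi line. None of the 8 passed the test, but 3 had an unadjusted edgeR p below 0.05, against 14.1% of all tested features. The median log2 difference of the 8 was -2.61, within a range from -2.99 to -0.42, so all were lower in the RNAi line. Their part in the differences below was not tested.

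In all, 971 of the 25602 tested features passed at an adjusted p below 0.05 (edgeR's quasi-likelihood test, Benjamini-Hochberg), which is 3.79% of those tested. Of these, 553 (2.16%) were higher and 418 (1.63%) lower in the RNAi line. Graded features made up 742 of the 971, with 422 higher and 320 lower in the RNAi line. A further 131, of 154 tested, had no reads in the wild type ethanol libraries, and 98, of 138 tested, had none in the RNAi ethanol libraries. Among all tested features, the 3 libraries of 1 genotype lay wholly above those of the other in 4437 (17.3%), and this held for each of the 971 that passed. The median log2 difference over all tested features was -0.02.

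The counts of graded features moved with single libraries, whereas the counts of features with no reads in 1 genotype moved by less than 1.5 times. Graded features higher in the RNAi line outnumbered the lower ones with all 6 libraries, but not without wild type replicate 1, where 287 were higher and 352 lower. Those higher numbered 234 without wild type replicate 3, 232 without RNAi replicate 2 and 236 without RNAi replicate 3. Those lower in it numbered 211, 206 and 158 without RNAi replicate 1, 2 and 3, and the total fell to 611 without RNAi replicate 3. With the 6 ethanol libraries alone 219 graded features were higher and 182 lower, and with DESeq2 763 and 679.

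**Figure D1:**
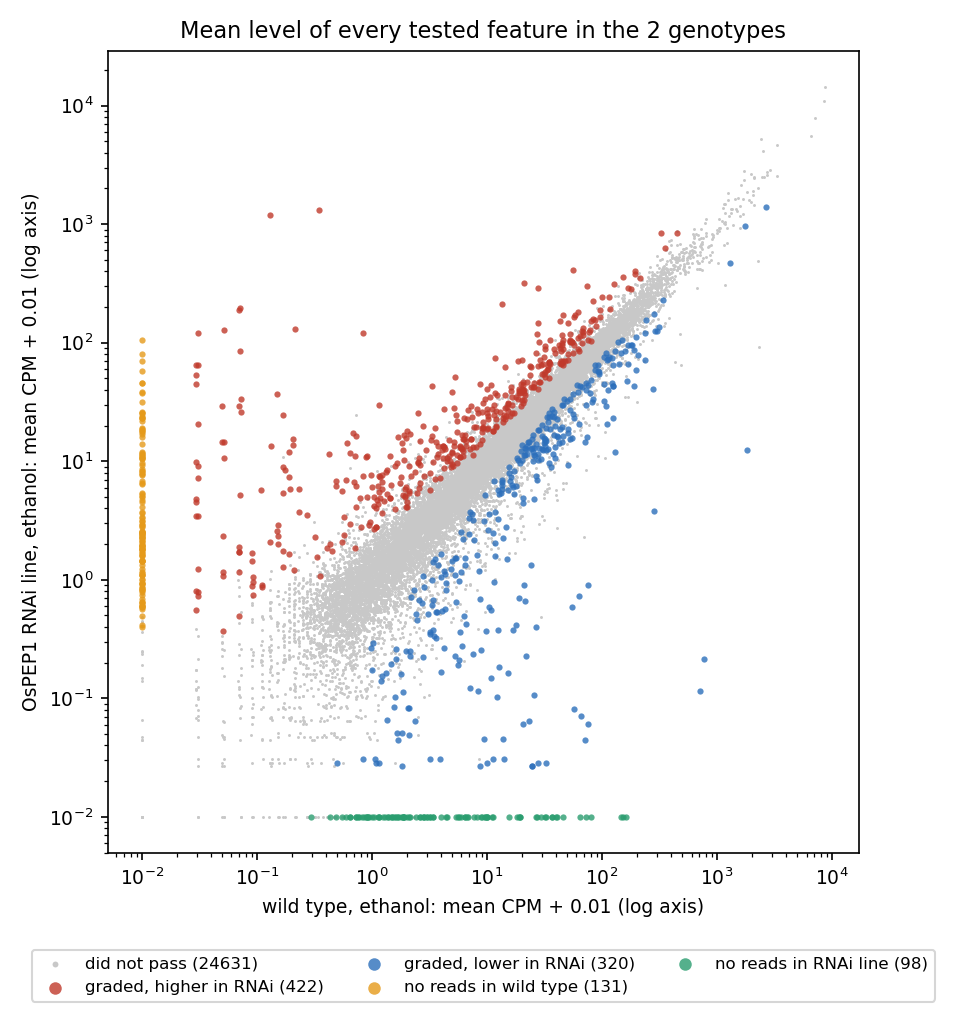
Mean level of each of the 25602 tested features in the wild type (x axis) and the RNAi line (y axis) under ethanol, in CPM plus 0.01 on log axes, n = 3 libraries each. Grey points did not pass; 422 red and 320 blue points are graded features, and the columns at the left and bottom edges are the 131 and 98 features with no reads in 1 genotype.

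Of the 742 graded features that passed, 543 differed by at least 2-fold. The median absolute log2 difference of the 742 graded features was 1.56. A first class of 199 differed by less than 2-fold, 258 by 2- to 4-fold, 151 by 4- to 16-fold and 134 by over 16-fold. The level in the lower genotype fell along these classes, with medians of 28.4, 8.18, 1.09 and 0.0724 CPM, against 45.8, 22.9, 6.69 and 10.7 CPM in the higher genotype. In 130 of the 134 features past 16-fold the lower genotype was under 1 CPM, while the other genotype reached 1320 CPM among the rises and 1827 CPM among the falls. This class thus borders on the features with no reads, from which it is separated by as little as 1 read. With the line drawn at no more than 3 reads over the 3 libraries, 170 and 127 features in place of 131 and 98 belonged to the no-read classes. A graded difference with at least 1 CPM in the lower genotype was found for 524 features, 313 higher and 211 lower in the RNAi line, and 325 of them differed by at least 2-fold.

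The differences were unevenly placed along the genome, as read from the chromosome and serial number in the locus IDs. On chromosome 11, 151 of 1453 tested loci passed (10.4%), and on chromosome 12, 84 of 1381 (6.08%). Chromosomes 7 and 6 followed with 4.69% and 4.06%, and the other 8 chromosomes lay between 2.08% and 3.398%. The 151 loci on chromosome 11 comprised 60 graded loci higher and 33 lower in the RNAi line, 40 with no reads in the wild type and 18 with none in the RNAi line. Chromosome 1, with the most tested loci, had 3 of the first no-read class and 0 of the second. Features with a serial number outside the locus scheme, passed in 79 of 959 cases (8.24%). Chromosomes 11 and 12 together held 11.1% of the tested features, but 14.1% of the graded features under 2-fold, 15.9% at 2- to 4-fold, 29.1% at 4- to 16-fold and 28.4% past 16-fold. These are descriptions of position, with no test of the clustering.

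**Figure D2:**
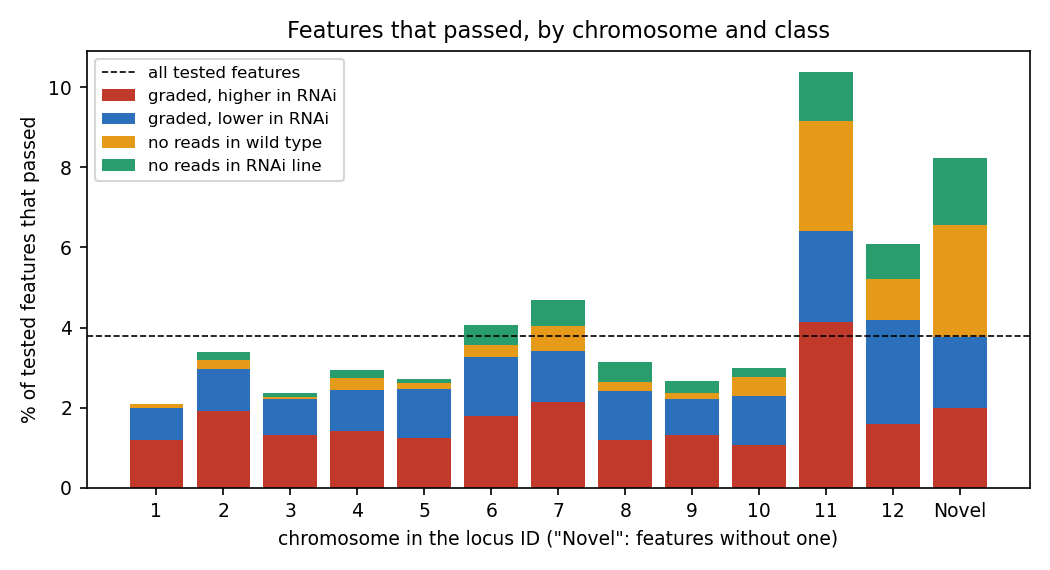
Share of tested features that passed (y axis, %) for each chromosome named in the locus ID and for the features numbered outside the locus scheme (x axis), stacked by class. The dashed line marks the 3.79% of all tested features, and chromosome 11 stands highest at 10.4%.

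On a finer scale the loci were cut into 488 runs of 50 neighbouring tested loci. The median run held 1 passing locus and 157 runs held 0. By contrast, 10 runs held at least 10 each, and these held 143 loci, or 16.03% of the passing locus IDs, with 65 of the 186 no-read loci. The densest run, from 69% to 72% of the order of tested loci on chromosome 11, had 23 of 50, and a run from 33% to 36% on chromosome 12 had 19. Further stretches of chromosome 11, from 58% to 62% and from 55% to 58%, had 16 and 14, and a run from 45% to 47% on chromosome 6 had 13. Within these runs the directions were mixed: the densest held 11 graded rises, 6 graded falls, 4 loci with no reads in the wild type and 2 with none in the RNAi line. The run on chromosome 12 held 0 graded rises, 7 graded falls, 7 loci with no reads in the wild type and 5 with none in the RNAi line. Direct neighbours also passed together: 38 stretches of 3 or more consecutive tested loci passed, 22 of them on chromosomes 11 and 12, and the longest had 7 loci. Of the 38 stretches, 20 went in 1 direction throughout.

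**Figure D3:**
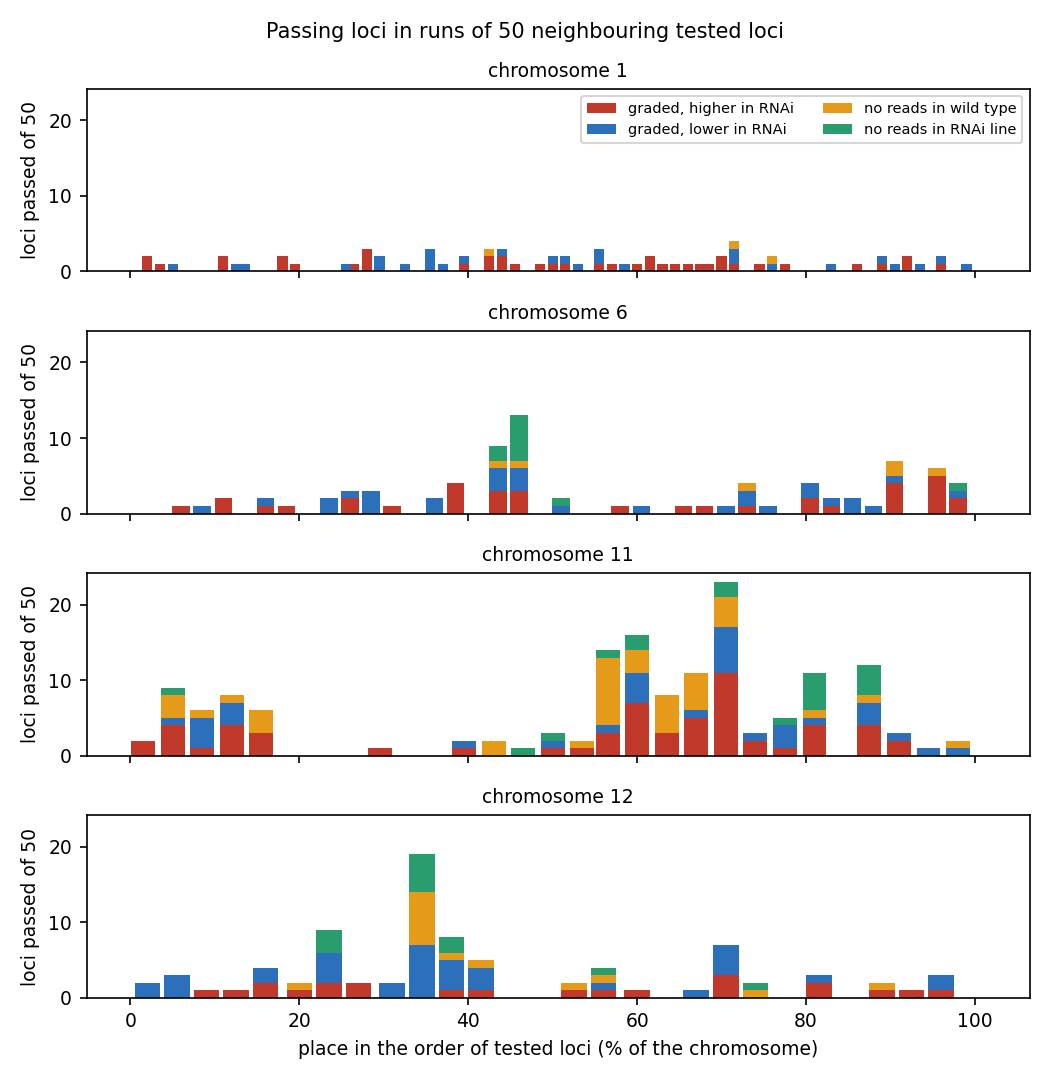
Number of passing loci in each run of 50 neighbouring tested loci (y axis) against the place of the run in the order of tested loci (x axis, % of the chromosome), stacked by class. Chromosomes 11, 12 and 6 hold the densest runs, with 23, 19 and 13, and chromosome 1 is shown for contrast.

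Before the filter, 2115 features had reads in the RNAi ethanol libraries and none in the wild type ones, and 239 of these had at least 10 reads. With the genotypes exchanged the numbers were 1879 and 200. The filter and the test favour features with reads in several libraries of a genotype. Each of the 131 that passed with no reads in the wild type had reads in all 3 RNAi ethanol libraries. They comprised 104 locus IDs and 27 features outside that scheme, with a median of 2.51 CPM in the RNAi line, and 34 exceeded 10 CPM. Set against the floor of 3 counts over the wild type group, the RNAi level was at least 41.7-fold higher in the median feature, with bounds from 6.44 to 1767. The 98 features with no reads in the RNAi line, 82 locus IDs and 16 features outside that scheme, had a median of 2.91 CPM in the wild type, and 24 exceeded 10 CPM. Their RNAi level was at least 52.0-fold lower in the median feature, with bounds from 5.05 to 2917. The floor of 3 counts over a group is 0.0601 CPM over the wild type group and 0.0559 CPM over the RNAi group, and it covers counting error only.

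The features of the no-read classes with the highest level carry no gene symbol in the sources used here. LOC_Os11g34820 on chromosome 11 had 0 reads in the 3 wild type libraries and 90.1, 121 and 108 CPM in the RNAi libraries. Its neighbour LOC_Os11g34810 likewise had 0 reads in the wild type and 77.2, 82.7 and 82.5 CPM in the RNAi line. The RNAi levels were at least 1767-fold and at least 1344-fold higher. Of the 20 tested loci nearest to LOC_Os11g34820, 10 passed, whereas the median tested locus had 0 passing neighbours among its nearest 20. In the other direction, Novel00347 stood at 172, 166 and 152 CPM in the wild type and at 0 reads in the RNAi line, at least 2916-fold lower. LOC_Os10g29650 stood at 118, 198 and 137 CPM in the wild type and at 0 reads in the RNAi line, at least 2705-fold lower.

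The largest graded changes with at least 1 CPM in the lower genotype were likewise at loci without a symbol. LOC_Os03g03500 had 1.67, 0.768 and 0.949 CPM in the wild type and 38.4, 23.9 and 27.2 CPM in the RNAi line. Every RNAi library was above every wild type library, with a log2 difference of 4.72 ± 0.40 (SE, edgeR adjusted p = 4.11e-05). LOC_Os09g21360 rose from 10.2, 12.6 and 17.6 CPM to 183, 243 and 211 CPM, a log2 difference of 3.98 ± 0.27 (SE, edgeR adjusted p = 8.85e-06). The largest falls lay close together on chromosome 12. LOC_Os12g13340 had 1883, 1726 and 1872 CPM in the wild type, among the most abundant transcripts that passed, and 15.5, 10.8 and 11.03 CPM in the RNAi line, with a log2 difference of -7.20 ± 0.38 (SE, edgeR adjusted p = 2.62e-06). LOC_Os12g13290 had 174, 411 and 266 CPM in the wild type and 4.15, 3.801 and 3.39 CPM in the RNAi line, with a log2 difference of -6.22 ± 0.35 (SE, edgeR adjusted p = 3.40e-06). The groups did not overlap at any of these loci, and all kept their call in each of the 14 alternative analyses.

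Gene symbols could be placed on 419 tested loci, in 35 lists by function. Of the 419, 29 passed (6.92%, against 3.79% of all tested features), 15 higher and 14 lower in the RNAi line, and 16 of the lists had a member that passed. All 29 were graded. Calls were kept without any 1 of the 6 ethanol libraries at 7 loci: RR6, CML15, CML16, CIPK9, HKT1, DREB1C and IAA20. At the other 22 at least 1 omission ended the call, always with the same sign, and 17 of the 29 did not pass with the 6 ethanol libraries alone. The omissions are given with each group below. Counts by list are to be read against the share over all tested features, 3.79%, or 2.16% higher and 1.63% lower. Whether any list differs from that share was not tested.

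**Figure D4:**
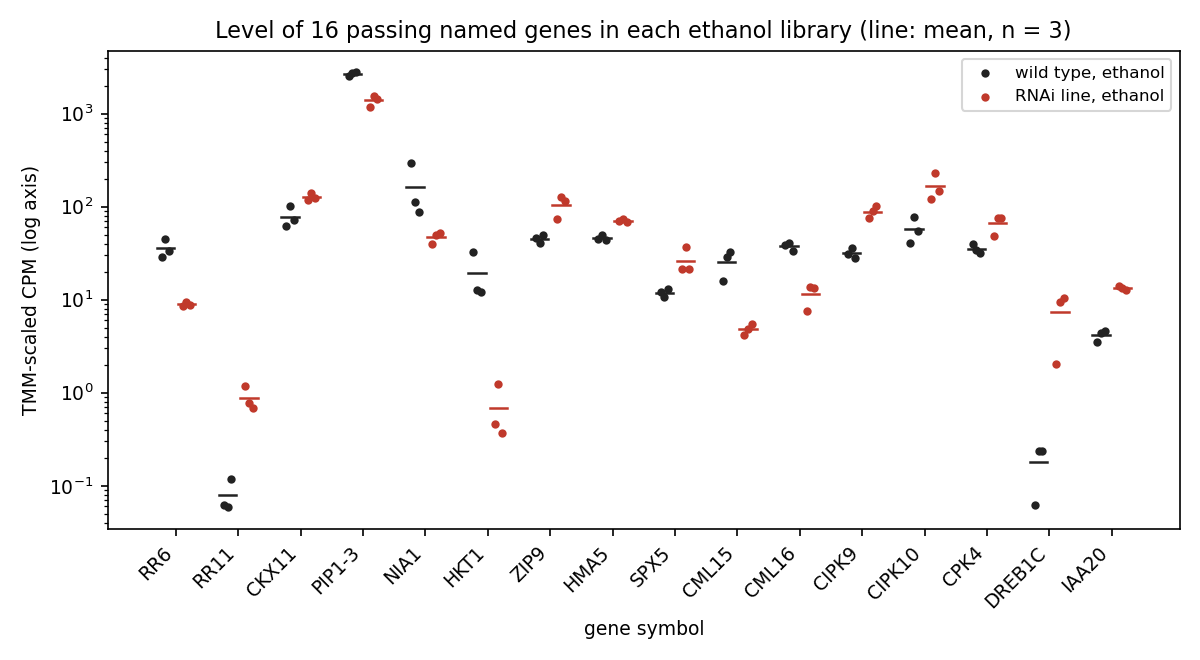
Level of 16 named genes that passed (x axis) in each ethanol library, in TMM-scaled CPM on a log axis. Black points are the 3 wild type libraries, red points the 3 RNAi libraries and lines their means; the groups do not overlap at any of the genes.

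Of 7 tested type-A cytokinin response regulators, 1 was lower and 1 higher in the RNAi line (28.6%, against 3.79% of all tested features). Type-A regulators are induced quickly by cytokinin and dampen its signalling, so their transcripts are widely used as a readout of the hormone. RR6 (LOC_Os04g57720), one of them, had 29.1, 45.1 and 33.8 CPM in the wild type and 8.45, 9.56 and 8.69 CPM in the RNAi line. Its log2 difference was -2.02 ± 0.30 (SE, edgeR adjusted p = 0.00285), and the RNAi libraries lay within a narrow band far below the lowest wild type library. RR11 (LOC_Os02g42060), a weakly expressed member, had 0.06201, 0.05905 and 0.119 CPM in the wild type, which is 1 to 2 reads a library, and 1.18, 0.783 and 0.678 CPM in the RNAi line. It was higher in each RNAi library, with a log2 difference of 3.36 ± 0.66 (SE, edgeR adjusted p = 0.0143) that rests on few reads. RR11 did not pass without wild type replicate 1 or 2 or without RNAi replicate 1, where its log2 difference was 3.08 to 3.2 at an adjusted p of 0.0513 to 0.0603.

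Of the 5 members that did not pass, RR4, RR2, RR9 and RR10 had negative log2 differences. RR4 (LOC_Os01g72330) had 82.7, 97.3 and 83.6 CPM in the wild type and 65.9, 61.8 and 55.8 CPM in the RNAi line, groups that did not overlap, with a log2 difference of -0.52 ± 0.13 (SE, edgeR adjusted p = 0.0562). RR2 (LOC_Os02g35180) gave -0.64 ± 0.23 (SE, edgeR adjusted p = 0.221). RR9 (LOC_Os11g04720) gave -0.89 ± 0.28 (SE, edgeR adjusted p = 0.146) and its near-identical copy RR10 (LOC_Os12g04500) -0.89 ± 0.29 (SE, edgeR adjusted p = 0.159), and reads could be divided between them. RR1 (LOC_Os04g36070) gave 0.30 ± 0.32 (SE, edgeR adjusted p = 0.757). The summed level of the 7 loci was 513 to 940 CPM in the wild type and 382 to 423 CPM in the RNAi line. The 940 CPM is wild type replicate 2 alone, against 513 and 556 CPM in replicates 1 and 3. That library was the highest of the 6 at 5 of the 7 loci, and also at 7 of the 8 shoot marker loci, and the part of shoot RNA or of this library in the sum was not tested. Among 15 tested loci for cytokinin breakdown, activation, perception and type-B regulators, 1 passed (6.67%, against 3.79% of all tested features). It was CKX11 (LOC_Os08g35860), a cytokinin oxidase that degrades the hormone. It had 61.9, 101 and 71.3 CPM in the wild type and 118, 141 and 123 CPM in the RNAi line, higher in each RNAi library, with a log2 difference of 0.70 ± 0.17 (SE, edgeR adjusted p = 0.0477). CKX11 did not pass without wild type replicate 1 or 3 or without RNAi replicate 1, 2 or 3, where its log2 difference was 0.54 to 0.74 at an adjusted p of 0.0861 to 0.193.

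Aquaporins, the water channels of plant membranes, were listed together with the silicon exporter Lsi2. Of 22 tested loci of the list, 2 were lower in the RNAi line (9.09%, against 1.63% of all tested features) and 0 higher. PIP1-3 (LOC_Os02g57720), a plasma membrane channel and among the most abundant named transcripts, had 2513, 2736 and 2769 CPM in the wild type. In the RNAi line it had 1191, 1563 and 1423 CPM, so that its highest RNAi library was well below its lowest wild type library, with a log2 difference of -0.94 ± 0.18 (SE, edgeR adjusted p = 0.0113). Of its 20 nearest tested loci 3 passed, and 6.46% of all tested loci had 3 or more passing neighbours. NIP1-1 (LOC_Os02g13870), of the nodulin-26-like group, had 2.79, 1.24 and 2.91 CPM in the wild type and 0.8198, 0.894 and 0.739 CPM in the RNAi line, with a log2 difference of -1.49 ± 0.35 (SE, edgeR adjusted p = 0.0402). PIP1-3 did not pass without RNAi replicate 3, where its log2 difference was -0.97 at an adjusted p of 0.0558. NIP1-1 did not pass without wild type replicate 1 or 3 or without RNAi replicate 1, 2 or 3, where its log2 difference was -1.29 to -1.56 at an adjusted p of 0.109 to 0.156.

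The other members of the list did not pass, and the median log2 difference of the 22 was -0.03. The abundant PIP2-1 (LOC_Os07g26690) gave -0.14 ± 0.15 (SE, edgeR adjusted p = 0.764), TIP1-1 (LOC_Os03g05290) of the vacuolar membrane -0.23 ± 0.21 (SE, edgeR adjusted p = 0.71) and PIP1-2 (LOC_Os04g47220) -0.49 ± 0.35 (SE, edgeR adjusted p = 0.616). Lsi1 (LOC_Os02g51110), the channel that takes up silicic acid in rice roots, had 431, 416 and 495 CPM in the wild type and 684, 1068 and 894 CPM in the RNAi line. These groups did not overlap, but the log2 difference of 0.98 ± 0.32 (SE, edgeR adjusted p = 0.16) did not pass. Its partner Lsi2 (LOC_Os03g01700), the exporter, gave 0.85 ± 0.39 (SE, edgeR adjusted p = 0.366). TIP2-2 (LOC_Os06g22960) and PIP2-6 (LOC_Os04g16450) had positive differences of 0.57 ± 0.21 (SE, edgeR adjusted p = 0.222) and 0.40 ± 0.16 (SE, edgeR adjusted p = 0.279).

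Calmodulin-like proteins, small calcium sensors with EF-hand motifs, fell at 4 of 23 tested loci and rose at 0. The 4 are 17.39% of the list, against 1.63% lower among all tested features. The list's median log2 difference was -0.46. CML15 (LOC_Os05g31620) had 15.8, 28.5 and 32.4 CPM in the wild type and 4.201, 4.81 and 5.42 CPM in the RNAi line, a log2 difference of -2.41 ± 0.28 (SE, edgeR adjusted p = 0.000523). CML16 (LOC_Os01g04330) had 38.6, 40.9 and 33.3 CPM in the wild type and 7.48, 13.8 and 13.4 CPM in the RNAi line, with -1.70 ± 0.28 (SE, edgeR adjusted p = 0.00559). At both, the highest RNAi library was below the lowest wild type library. CML14 (LOC_Os05g50180) had 20.1, 10.3 and 15.7 CPM in the wild type and 4.201, 5.93 and 6.84 CPM in the RNAi line, with -1.44 ± 0.29 (SE, edgeR adjusted p = 0.0157). CML31 (LOC_Os01g72530) had 9.86, 3.19 and 2.97 CPM and 0.615, 0.503 and 0.801 CPM, the highest of them in wild type replicate 1, with -3.05 ± 0.62 (SE, edgeR adjusted p = 0.0183). CML14 did not pass without wild type replicate 3 or without RNAi replicate 1 or 2, where its log2 difference was -1.27 to -1.48 at an adjusted p of 0.0539 to 0.06. CML31 did not pass without RNAi replicate 1, 2 or 3, where its log2 difference was -2.91 to -3.24 at an adjusted p of 0.0626 to 0.0916. The list as a whole summed to 630.0 to 667 CPM in the wild type and 435 to 488 CPM in the RNAi line. Sums without overlap were not particular to this list. The jasmonate list summed to 1454 to 1598 CPM in the wild type and 1170 to 1246 CPM in the RNAi line. In the other direction, the metal list summed to 1031 to 1063 CPM and 1164 to 1303 CPM. CML18 (LOC_Os05g13580) at -0.61 ± 0.15 (SE, edgeR adjusted p = 0.0536), CML10 (LOC_Os01g72100) at -0.81 ± 0.28 (SE, edgeR adjusted p = 0.2) and CML30 (LOC_Os06g07560) at -0.57 ± 0.19 (SE, edgeR adjusted p = 0.16) did not pass.

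Protein kinases that respond to calcium differed in both directions. Of 30 tested loci for CBL sensors and the CIPK kinases they activate, 3 rose and 1 fell (13.3%, against 3.79% of all tested features). CIPK9 (LOC_Os03g03510) had 30.9, 36.3 and 27.9 CPM in the wild type and 75.98, 89 and 100 CPM in the RNAi line, every RNAi library being above every wild type library, with a log2 difference of 1.48 ± 0.18 (SE, edgeR adjusted p = 0.000764). Its locus ID is next to LOC_Os03g03500, the largest graded rise named above, and reads of overlapping neighbours could be shared if the counting ignored strand. Among the 20 tested loci nearest to CIPK9, 3 passed. CIPK9 lay in a stretch of 3 consecutive passing loci, all higher in the RNAi line. CIPK10 (LOC_Os03g22050) rose from 40.7, 77.3 and 54.5 CPM to 120, 228 and 149 CPM, a log2 difference of 1.52 ± 0.28 (SE, edgeR adjusted p = 0.00991). CIPK33 (LOC_Os11g03970), which has a copy on the duplicated end of chromosome 12, rose from 41.7, 75.9 and 48.5 CPM to 98.8, 101 and 105 CPM, with 0.88 ± 0.20 (SE, edgeR adjusted p = 0.0349), and 4 of its 20 nearest tested loci also passed. CIPK29 (LOC_Os07g48090) fell from 128, 140 and 120 CPM to 85.8, 81.2 and 87.7 CPM, with -0.61 ± 0.13 (SE, edgeR adjusted p = 0.0242). CIPK10 did not pass without wild type replicate 3, where its log2 difference was 1.49 at an adjusted p of 0.0509. CIPK33 did not pass without wild type replicate 1 or 3 or without RNAi replicate 1, 2 or 3, where its log2 difference was 0.69 to 0.89 at an adjusted p of 0.0873 to 0.142. CIPK29 did not pass without wild type replicate 2 or without RNAi replicate 1, 2 or 3, where its log2 difference was -0.55 to -0.64 at an adjusted p of 0.0555 to 0.0936.

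The near-identical pair CIPK14 (LOC_Os12g02200) and CIPK15 (LOC_Os11g02240), the latter known in rice for its part in sugar and low-oxygen signalling, did not pass, with log2 differences of 1.09 ± 0.27 (SE, edgeR adjusted p = 0.0558) and 1.19 ± 0.36 (SE, edgeR adjusted p = 0.118). Calcium-dependent protein kinases join a sensor and a kinase in 1 protein. Of 19 tested, 1 passed (5.26%, against 3.79% of all tested features), CPK4 (LOC_Os02g03410). It had 39.8, 34.01 and 31.7 CPM in the wild type and 48.6, 75.3 and 74.9 CPM in the RNAi line, without overlap, with a log2 difference of 0.91 ± 0.19 (SE, edgeR adjusted p = 0.0221). CPK4 did not pass without wild type replicate 2 or 3 or without RNAi replicate 2 or 3, where its log2 difference was 0.81 to 0.89 at an adjusted p of 0.0589 to 0.1. CPK5 (LOC_Os02g46090) gave 0.52 ± 0.14 (SE, edgeR adjusted p = 0.0835) and did not pass.

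Of 8 tested potassium and sodium transporters, 1 passed and fell, HKT1 (LOC_Os06g48810), also called HKT2;1, a sodium transporter of rice roots that is known to rise when potassium is short. It had 32.7, 12.8 and 11.98 CPM in the wild type and 0.461, 1.23 and 0.3696 CPM in the RNAi line. The lowest wild type library was several times above the highest RNAi library, and the log2 difference was -4.78 ± 0.63 (SE, edgeR adjusted p = 0.00111). The other 7 tested potassium and sodium transporters did not pass, so 12.5% of the list was lower, against 1.63% of all tested features. HAK1 (LOC_Os04g32920), a high-affinity potassium transporter, had 1229, 84.5 and 109 CPM in the wild type and 51.8, 190 and 111 CPM in the RNAi line, groups that overlapped. Its log2 difference of -2.01 ± 1.01 (SE, edgeR adjusted p = 0.42) became 0.27 without wild type replicate 1.

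Of 19 tested loci for nitrogen uptake and assimilation, 2 were lower in the RNAi line (10.5%, against 1.63% of all tested features) and 0 higher. The list's median log2 difference was -1.10, and wild type replicate 1 was the highest ethanol library at 17 of the 19 loci. The median without that library was not computed. NIA1 (LOC_Os08g36480), a nitrate reductase, had 292, 111 and 88.2 CPM in the wild type and 40.2, 50.1 and 51.9 CPM in the RNAi line. FNR (LOC_Os03g57120), a ferredoxin-NADP reductase that supplies electrons for nitrite reduction in roots, had 426, 248 and 201 CPM in the wild type and 137, 113 and 125 CPM in the RNAi line. Their log2 differences were -1.79 ± 0.41 (SE, edgeR adjusted p = 0.0381) and -1.22 ± 0.26 (SE, edgeR adjusted p = 0.0231), and the groups did not overlap, with wild type replicate 1 the highest at both. NIA1 did not pass without wild type replicate 1 or without RNAi replicate 1, 2 or 3, where its log2 difference was -1.09 to -1.86 at an adjusted p of 0.0613 to 0.126. FNR did not pass without RNAi replicate 1, 2 or 3, where its log2 difference was -1.16 to -1.30 at an adjusted p of 0.0517 to 0.0979. The high-affinity nitrate transporter NRT2.1 (LOC_Os02g02170) had 202, 0.945 and 3.85 CPM in the wild type and 0.461, 5.09 and 1.35 CPM in the RNAi line, and its log2 difference of -4.91 ± 1.70 (SE, edgeR adjusted p = 0.194) did not pass. Its partner protein NAR2.1 (LOC_Os02g38230) had 1225, 19.1 and 60.4 CPM in the wild type and 10.5, 132 and 65.2 CPM in the RNAi line. NAR2.1 gave -2.65 ± 1.40 (SE, edgeR adjusted p = 0.448), AMT1-3 (LOC_Os02g40730), an ammonium transporter, -2.67 ± 1.12 (SE, edgeR adjusted p = 0.306), and GLN1-2 (LOC_Os03g12290), a glutamine synthetase, -2.92 ± 1.23 (SE, edgeR adjusted p = 0.31). Without wild type replicate 1 the signs of NAR2.1 (0.78) and GLN1-2 (0.22) turned.

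Of 17 tested transporters of zinc, copper, manganese and other metals, 3 were higher in the RNAi line and 0 lower. The 3 are 17.65% of the list, against 2.16% of all tested features, and the list's median log2 difference was 0.40. ZIP9 (LOC_Os05g39540), a zinc uptake transporter of rice roots, had 45.6, 40.6 and 49.9 CPM in the wild type and 73.2, 126 and 116 CPM in the RNAi line, with 1.21 ± 0.23 (SE, edgeR adjusted p = 0.0109). HMA5 (LOC_Os04g46940), a copper pump that loads the xylem, had 44.6, 49.4 and 44.01 CPM and 69.5, 73.2 and 68.7 CPM, with 0.61 ± 0.12 (SE, edgeR adjusted p = 0.0154). ZIP6 (LOC_Os05g07210), a metal transporter of the same family as ZIP9, had 43.8, 50.9 and 48.8 CPM and 73.8, 69.7 and 64.6 CPM, with 0.54 ± 0.11 (SE, edgeR adjusted p = 0.0183). Every RNAi library exceeded every wild type library at all of them. ZIP9 did not pass without RNAi replicate 2 or 3, where its log2 difference was 1.05 to 1.13 at an adjusted p of 0.0538 to 0.0558. HMA5 did not pass without wild type replicate 1 or 3 or without RNAi replicate 2 or 3, where its log2 difference was 0.58 to 0.62 at an adjusted p of 0.0533 to 0.0757. ZIP6 did not pass without wild type replicate 1 or 3 or without RNAi replicate 1 or 2, where its log2 difference was 0.46 to 0.55 at an adjusted p of 0.0644 to 0.0807. HMA4 (LOC_Os02g10290), which stores copper in the vacuole, gave 0.62 ± 0.18 (SE, edgeR adjusted p = 0.106), and ZIP5 (LOC_Os05g39560), beside ZIP9 on chromosome 5, gave 0.58 ± 0.19 (SE, edgeR adjusted p = 0.176); neither passed.

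None of the 17 tested iron loci with a placed symbol was called different between the genotypes. Rice takes up iron both as ferrous ions and as complexes with phytosiderophores made from nicotianamine. The 17 loci belong to these routes, to vacuolar storage or to transcription factors of the iron response. With edgeR 0 passed, against 3.79% of all tested features. At an unadjusted edgeR p below 0.05 stood 1 of the 17, against 14.1% of all tested features. Symbols of other iron genes, among them DMAS1, TOM1, IRO2, FER1 and FER2, could not be placed, and these genes were not counted. The median log2 difference of the 17 was 0.01, within a range from -1.58 to 0.53. IRT1 (LOC_Os03g46470), the ferrous iron transporter, had 151, 23.03 and 56.1 CPM in the wild type and 31.8, 149 and 133 CPM in the RNAi line, overlapping groups with a log2 difference of 0.45 ± 0.75 (SE, edgeR adjusted p = 0.858). NAS3 (LOC_Os07g48980), a nicotianamine synthase, had 39.6, 45.4 and 37.8 CPM in the wild type and 30.3, 24.5 and 27.97 CPM in the RNAi line, with -0.57 ± 0.16 (SE, edgeR adjusted p = 0.0947).

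Of 14 tested phosphate loci, 1 was higher in the RNAi line (7.14%, against 2.16% of all tested features) and 0 lower. SPX5 (LOC_Os03g29250), of the SPX proteins that bind inositol pyrophosphates and hold back the phosphate starvation regulators, had 12.1, 10.8 and 12.9 CPM in the wild type and 21.3, 36.5 and 21.3 CPM in the RNAi line. The groups did not overlap and the log2 difference was 1.14 ± 0.26 (SE, edgeR adjusted p = 0.0309). SPX5 did not pass without wild type replicate 1, 2 or 3 or without RNAi replicate 2 or 3, where its log2 difference was 0.83 to 1.27 at an adjusted p of 0.0509 to 0.139. SPX1 (LOC_Os06g40120) had 38.9, 27.3 and 41.5 CPM in the wild type and 52.98, 68.4 and 54.95 CPM in the RNAi line, with 0.71 ± 0.20 (SE, edgeR adjusted p = 0.0808). PHR2 (LOC_Os07g25710), the central transcription factor of phosphate starvation, gave -0.15 ± 0.11 (SE, edgeR adjusted p = 0.626). The median of the list was -0.03.

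Among regulators, DREB1C (LOC_Os06g03670), an AP2 factor of the cold and dehydration response, had the largest rise among the 29 named genes that passed. It had 0.06201, 0.236 and 0.237 CPM in the wild type, or 1 to 4 reads a library, and 2.05, 9.504 and 10.3 CPM in the RNAi line, lowest in replicate 1, with a log2 difference of 5.29 ± 0.77 (SE, edgeR adjusted p = 0.00223). The other 5 stress transcription factors tested did not pass, so 16.7% of the list was higher, against 2.16% of all tested features. Among the 5, SNAC2 (LOC_Os01g66120) gave 0.74 ± 0.21 (SE, edgeR adjusted p = 0.0983). Aux/IAA proteins, repressors of auxin signalling, belonged to a list of 29 tested auxin response loci. In this list 2 loci rose (6.90%, against 2.16% of all tested features) and 0 fell. IAA20 (LOC_Os06g07040) rose from 3.53, 4.37 and 4.57 CPM to 13.9, 13.3 and 12.8 CPM, with 1.68 ± 0.26 (SE, edgeR adjusted p = 0.00346). IAA9 (LOC_Os02g56120) rose from 1.67, 1.53 and 2.31 CPM to 4.71, 5.87 and 4.805 CPM, with 1.48 ± 0.32 (SE, edgeR adjusted p = 0.0256). IAA9 did not pass without wild type replicate 1 or 2 or without RNAi replicate 1, 2 or 3, where its log2 difference was 1.35 to 1.52 at an adjusted p of 0.0583 to 0.107.

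Of 19 tested jasmonate loci, 2 were lower in the RNAi line (10.5%, against 1.63% of all tested features) and 0 higher. TIFY6A (LOC_Os08g33160), of the TIFY family that includes the JAZ repressors of jasmonate signalling, had 115, 142 and 108 CPM in the wild type and 73.7, 79.4 and 69.7 CPM in the RNAi line, with -0.71 ± 0.13 (SE, edgeR adjusted p = 0.00887). OPR1 (LOC_Os06g11290), an oxophytodienoate reductase, had 9.05, 6.61 and 6.64 CPM and 4.304, 2.63 and 3.76 CPM, with -1.06 ± 0.26 (SE, edgeR adjusted p = 0.0454). TIFY10B (LOC_Os07g42370) at -0.54 ± 0.14 (SE, edgeR adjusted p = 0.0623) did not pass. TIFY6A did not pass without RNAi replicate 3, where its log2 difference was -0.68 at an adjusted p of 0.0519. OPR1 did not pass without wild type replicate 1, 2 or 3 or without RNAi replicate 1, 2 or 3, where its log2 difference was -0.89 to -1.23 at an adjusted p of 0.0518 to 0.16.

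Single members of other lists passed as well. 4CL4 (LOC_Os06g44620), a 4-coumarate:CoA ligase of the phenylpropanoid pathway, fell from 148, 126 and 136 CPM to 93.4, 105 and 104 CPM, with -0.44 ± 0.10 (SE, edgeR adjusted p = 0.0322). It was 1 of 8 tested loci of its list (12.5%, against 1.63% lower among all tested features). HSP17.9A (LOC_Os03g15960), a small heat shock protein, rose from 27.3, 35.96 and 26.2 CPM to 48.7, 64.9 and 50.1 CPM, with 0.87 ± 0.20 (SE, edgeR adjusted p = 0.0407). It was 1 of 14 tested loci for chaperones and their regulators (7.14%, against 2.16% higher among all tested features). EIF4A1 (LOC_Os06g48750), a helicase of translation initiation often used as a reference gene, rose from 482, 467 and 390 CPM to 813, 921 and 807 CPM, with 0.92 ± 0.19 (SE, edgeR adjusted p = 0.0172). It was 1 of 3 tested reference loci (33.3%, against 2.16% higher among all tested features). The median log2 difference of the 3 was 0.02 and the lowest -0.05. 4CL4 did not pass without wild type replicate 1 or 3 or without RNAi replicate 1, 2 or 3, where its log2 difference was -0.39 to -0.47 at an adjusted p of 0.0639 to 0.098. HSP17.9A did not pass without wild type replicate 1 or 3 or without RNAi replicate 1, 2 or 3, where its log2 difference was 0.72 to 0.94 at an adjusted p of 0.063 to 0.168. EIF4A1 did not pass without wild type replicate 3 or without RNAi replicate 2 or 3, where its log2 difference was 0.83 to 0.95 at an adjusted p of 0.052 to 0.0869.

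In 19 lists no member passed with edgeR. None of 11 tested loci for RNA silencing and DNA methylation did, 2 of them being at an unadjusted p below 0.05, with AGO1A (LOC_Os02g45070), an Argonaute slicer protein, at 0.40 ± 0.11 (SE, edgeR adjusted p = 0.0873). None of 12 loci for cellulose synthases, related glycan synthases and the wall protein BC1 passed and 3 had an unadjusted p below 0.05, with a list median of -0.41. CESA1 (LOC_Os05g08370), CESA3 (LOC_Os07g24190) and CESA8 (LOC_Os07g10770), enzymes of primary wall cellulose, gave -0.74 ± 0.22 (SE, edgeR adjusted p = 0.111), -0.64 ± 0.17 (SE, edgeR adjusted p = 0.0819) and -0.54 ± 0.19 (SE, edgeR adjusted p = 0.209). Of 10 loci for elicitor perception, its kinases and WRKY factors 0 passed and 0 had an unadjusted p below 0.05. Of 13 diterpenoid phytoalexin loci 0 passed and 1 had an unadjusted p below 0.05. CPS2 (LOC_Os02g36210), the cyclase at the head of phytocassane synthesis, had 2.05, 0.118 and 0 CPM in the wild type and 0, 73.1 and 0.0616 CPM in the RNAi line, so that RNAi replicate 2 alone was high. Its log2 difference of 5.09 ± 2.63 (SE, edgeR adjusted p = 0.437) became -4.36 without that library. Over all tested features, 14.1% had an unadjusted p below 0.05.

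The PEP1-treated libraries gave a second measurement of the genotype difference, from other libraries of the same line and the same wild type. They share with the ethanol comparison the filter on low counts, the TMM scaling and the estimate of spread, each made from all 12 libraries. Between the genotypes under PEP1, 679 of 25602 features passed (2.65%), 388 higher and 291 lower in the RNAi line. Of the 131 features with no reads in the wild type under ethanol, 90 also had none in the 3 wild type PEP1 libraries, 122 had at most 3 counts over them, and 118 passed under PEP1 in the same direction. Of the 98 with no reads in the RNAi line, 86 also had none in the 3 RNAi PEP1 libraries, 93 had at most 3, and 94 passed in the same direction. Summed over the 131 loci, the wild type PEP1 libraries held 38, 49 and 97 counts against 18439 to 21014 in the RNAi PEP1 libraries. Summed over the 98 loci, the RNAi PEP1 libraries held 14, 19 and 21 counts against 19824 to 25015 in the wild type PEP1 libraries. The loci without reads in a genotype were thus nearly without reads in both treatments.

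Graded differences passed again under PEP1 less often the smaller they were, while most of every size kept their sign. Of the 422 graded features higher in the RNAi line under ethanol, 397 had the same sign under PEP1 and 172 passed there in the same direction. Of the 320 lower, 260 had the same sign and 136 passed. Graded features that did not pass under ethanol had the same sign in 55.1% and passed in the same direction in 0.542%. By size under ethanol, 19.6% of the features under 2-fold, 27.1% at 2- to 4-fold, 53.6% at 4- to 16-fold and 88.1% past 16-fold passed under PEP1. In the same order, 83.9%, 84.9%, 92.05% and 98.5% had the same sign there. A small difference is less likely to reach a fixed threshold with 3 libraries a group, so the passing shares do not measure recurrence alone. The difference between the genotype effects was tested as an interaction: 1 of 25602 features passed, and 1353 had an unadjusted p below 0.05.

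**Figure D5:**
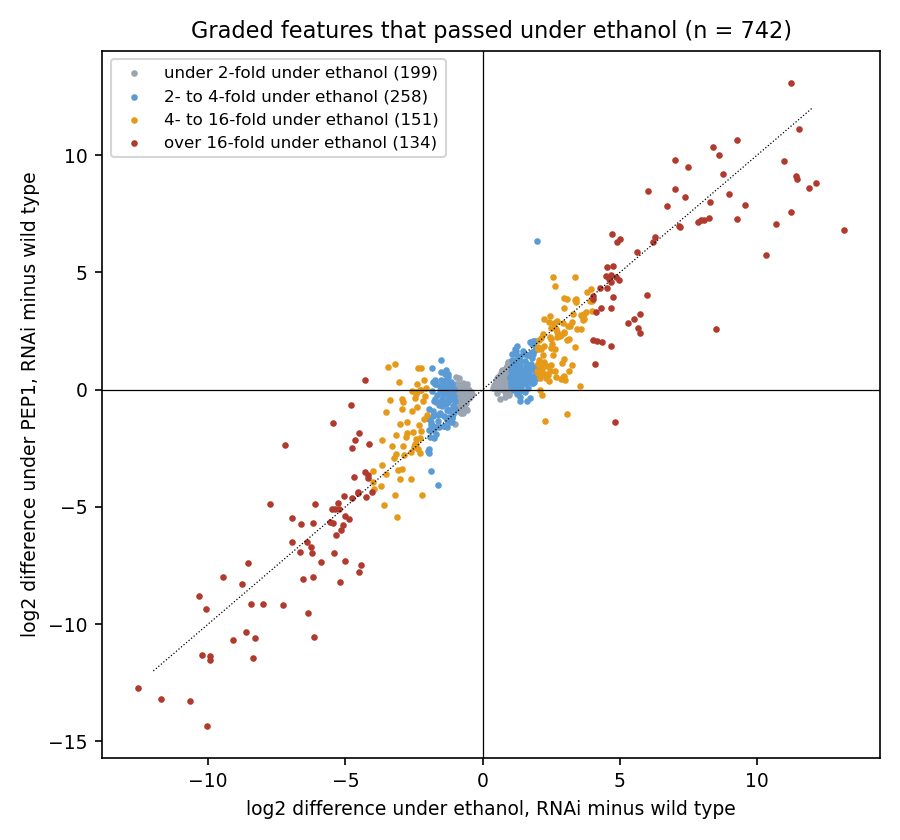
Log2 difference between the RNAi line and the wild type under ethanol (x axis) and under PEP1 (y axis) for the 742 graded features that passed under ethanol, coloured by the size of the ethanol difference. The dotted line marks equal differences; 397 of 422 rises and 260 of 320 falls lie on the same side of 0 under PEP1.

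The feature that passed the interaction was LOC_Os12g13340. It had 49.4, 24.06 and 37.05 CPM in the wild type under PEP1 and 10.1, 5.14 and 6.29 CPM in the RNAi line under PEP1, so that of the 4 groups only the wild type under ethanol was high. Its log2 genotype difference was -7.20 under ethanol and -2.36 under PEP1, and the interaction was 4.84 (adjusted p = 0.00684). Similar values were seen at 2 features with no reads in the RNAi line, named here after their values were seen and without a passing interaction. LOC_Os12g13350, the adjacent locus ID, had 196, 80.2 and 158 CPM in the wild type under ethanol and 3.54, 1.13 and 2.27 CPM under PEP1. Novel01076 had 31.3, 23.4 and 34.5 CPM under ethanol and 0.886, 0.535 and 0.443 CPM under PEP1. Both had 0 reads in the 6 RNAi libraries. LOC_Os12g13290, by contrast, had 221, 273 and 181 CPM in the wild type and 1.36, 1.77 and 2.19 CPM in the RNAi line under PEP1. LOC_Os03g03500 had 0.492, 0.238 and 0.838 CPM and 41.2, 66.7 and 51.9 CPM, and LOC_Os09g21360 had 11.96, 17.8 and 9.904 CPM and 128, 121 and 153 CPM, so the order of the genotypes was the same as under ethanol.

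Of the 29 named genes, 21 had the same sign under PEP1 and 9 passed there. Among the 15 higher in the RNAi line, 14 kept the sign and 8 passed: RR11, CIPK9, CIPK33, CPK4, ZIP9, HMA5, DREB1C and EIF4A1. Among the 14 lower, 7 kept the sign and PIP1-3 passed. CIPK9 had 35.8, 23.8 and 34.3 CPM in the wild type and 95.7, 114 and 86.95 CPM in the RNAi line under PEP1, a log2 difference of 1.66 (adjusted p = 0.000347). PIP1-3 had 3953, 3595 and 3686 CPM and 2436, 2032 and 2154 CPM, a log2 difference of -0.76 (adjusted p = 0.0466). RR6 had 19.6, 16.8 and 20.4 CPM and 7.93, 13.9 and 5.31 CPM, a log2 difference of -1.07 that did not pass (adjusted p = 0.121).

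The calmodulin-like loci that passed under ethanol did not pass under PEP1. CML15 had 12.6, 14.02 and 21.04 CPM in the wild type and 15.9, 15.7 and 13.4 CPM in the RNAi line, with a log2 difference of -0.09, and CML16 23.2, 19.8 and 30.4 CPM and 29.4, 37.1 and 19.6 CPM, with 0.23. CML14 had 14.3, 12.7 and 20.3 CPM and 18.04, 16.91 and 13.4 CPM, with 0.03, and CML31 11.4, 8.85 and 24.8 CPM and 18.04, 27.7 and 11.5 CPM, with 0.34. The groups overlapped under PEP1 at each of them. HKT1 had 457, 196 and 411 CPM and 254, 295 and 133 CPM, with -0.64. The interaction did not pass at any of the 29 named genes, the lowest adjusted p being 0.234, so a difference between the genotype effects under ethanol and under PEP1 is not shown for them.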

How the data were processed

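The data are raw counts of reads as the authors deposited them, in 1 table of 57265 features (55801 rice locus IDs, 1279 serial numbers outside that scheme and 185 fgenesh IDs), with no normalization. Per the labels' protocols, RNA was taken with Trizol from frozen roots and made into Illumina TruSeq libraries. The sources used here do not give aligner, genome build, annotation, counting tool or strand setting, so values of overlapping, antisense or near-identical genes are uncertain. Every column matched 1 sample by its title.

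All 12 libraries entered 1 fit of 4 groups (edgeR 4.0.16, limma 3.58.1, R 4.3.3) after filterByExpr, which left 25602 features, and TMM scaling. The test was the quasi-likelihood test for the RNAi ethanol minus the wild type ethanol group, with Benjamini-Hochberg adjustment over all tested features and a threshold of 0.05. Standard errors are the log2 difference divided by the square root of F. The biological coefficient of variation over all features was 0.313. The steps were tested on simulated counts. The alternatives were other scalings, filters, DESeq2 1.42.0, limma-voom, a replicate block and leaving out each ethanol library. No 2 libraries of a group were duplicates, with a chi-square per degree of freedom of at least 15.0.

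The table pairs no ID with a name, and 0 IDs matched the RefSeq table of assembly ASM3414082v1 with its 39387 genes. Symbols come from 635 pairs of a locus and a name typed in from memory of rice genetics, of which 455 were used, those where RefSeq lists the symbol on that chromosome within 0.015 of the relative position expected from the 5 nearest pairs. This cannot tell neighbouring copies apart. Named are the list members that passed, further cytokinin, aquaporin, phosphate and iron members, and, without a symbol, the 2 largest graded changes in each direction (reads in all 6 libraries, at least 1 CPM in the lower genotype) and the 2 highest features of each no-read class. Other members that did not pass were named after their values were seen. The comparison, its members and the lists were chosen with earlier results of these data known.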

Additional observations from a re-analysis of the deposited data

Results flagged for a closer look

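The genotype difference at LOC_Os12g13340 differed between the treatments: under PEP1 it was 4.84 higher on the log2 scale than under ethanol, the only feature of 25602 whose interaction passed (edgeR adjusted p = 0.00684). The wild type stood at 1827 ± 87.5 CPM under ethanol (SD, n = 3) and the RNAi line at 12.4 ± 2.64 CPM (SD, n = 3). The 3 wild type PEP1 libraries stood at 49.4, 24.06 and 37.05 CPM. Groups of 3 libraries were not searched for outlying samples.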

How the results depend on the processing

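The counts held within 1.5 times under other scalings, other filters and limma-voom. With the 6 ethanol libraries alone, 596 features passed, 219 graded ones higher and 182 lower, and DESeq2 gave 1699, 763 and 679. At an adjusted p below 0.01 they were 536, 195 and 153. Leaving out 1 ethanol library at a time gave 611 to 1046 passing features, 232 to 502 graded ones higher and 158 to 352 lower, 112 to 130 with no reads in the wild type and 94 to 105 with none in the RNAi line. The cause of these shifts was not tested. With a count of 0 required in all 6 libraries of a genotype, the no-read classes held 90 and 86 features.

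Replicate numbers share only a name between the groups: deviations of same-numbered libraries correlated at -0.45, -0.05 and 0.11, and no library correlated best with its own number. With the replicate block 863 features passed, 375 graded ones higher and 275 lower, 121 with no reads in the wild type and 92 with none in the RNAi line.

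Of the 37 passing features with a symbol or picked by the naming rule, 15 kept their call in all 14 alternatives. A further 6 lost it in 1 to 3 and 16 in 4 or more, and none changed sign. LOC_Os12g13350 and the other no-read feature named after its values were seen were not among the 37. Among named genes that did not pass, the log2 differences with 1 library left out ran from -3.52 to 0.78 at NAR2.1, from -3.52 to 0.22 at GLN1-2 and from -2.54 to 0.27 at HAK1, positive only without wild type replicate 1. At CPS2 they ran from -4.36 without RNAi replicate 2 to 8.52. The cause was not tested. Differences near the floor of 3 counts over a group, 0.0601 CPM in the wild type and 0.0559 CPM in the RNAi line, are not detectable at this depth.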
